A study of Arabidopsis thaliana with 12 samples.

Results

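The response of wild-type Arabidopsis thaliana seedlings to abscisic acid (ABA) in white light was described across genes from 6 libraries, 3 treated with ABA and 3 mock-treated, out of 12 libraries in the whole study. The members were chosen by their labels alone, and 19133 of 32833 loci entered the tests because they reached at least 1 TPM in 3 or more of the 6 libraries. TPM is a transcript's read count divided by its length and then scaled to a fixed total per library. The seedlings were of the Col-0 accession with no mutation or transgene named in the labels, were 10 days old, and had been raised under long days, with 16 h of light and 8 h of darkness. The treated group received 50 µM ABA for 3 h in white light without UV-B, and the mock group stayed in white light without UV-B and without ABA. The sources used here do not give the mock solution, the form of ABA or the hour of harvest. The 3 replicates of each group were raised separately from germination on, per the labels' protocols. A further group held 3 libraries of Col-0 given UV-B of 5 µmol m-2 s-1 on top of white light for 3 h, without ABA. It served for a direct comparison with the ABA libraries, and it also entered the fit and its estimate of the spread. The remaining 3 libraries, of the uvr8 mutant under the same UV-B without ABA, entered the fit and so its estimate of the spread, but no comparison. The mutant is known for lacking the UV-B photoreceptor UVR8, and the labels name no allele.

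ABA is the hormone that plants make when water is short. It is bound by soluble receptors of the PYR/PYL family, which then block clade A type 2C protein phosphatases (PP2Cs). The phosphatases otherwise hold SnRK2 protein kinases inactive, and the released kinases phosphorylate bZIP transcription factors of the ABF-ABI5 group, which bind a promoter element called the ABRE. In seedlings this pathway is known for closing stomata, slowing growth and inducing proteins that protect dehydrated cells. The 25 lists of pathway and control genes and the 5 lists of cell type markers described here were chosen with earlier results of these data known, so a count over a list is a description of its members.

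A change is given as the difference in log2(TPM + 1) between the ABA and mock means with its standard error (SE), tested with limma across all genes tested and called at a Benjamini-Hochberg adjusted p under 0.05. By that rule 56.7% of the genes tested were called, 15.8% higher with ABA and 40.9% lower. Called changes of at least 1 log2 unit were found in 6.1% higher and 5.56% lower. The 3 ABA libraries lay above all 3 mock libraries for 17.4% of the genes and below them for 46.6%. The median of all genes lay at -0.24, so a small fall is close to what the typical gene showed. After TMM-style scaling, which sets the bulk of genes equal between libraries, the median lay at -0.02, and 24.7% of the genes were called higher and 22.5% lower. Under both scalings together 3029 genes were called higher and 4309 lower, and 0 changed direction. After it 1524 genes were higher by at least 1 log2 unit, against 1168 as deposited, and 653 lower, against 1063. List counts against mock after this scaling are given where they differ from those on the deposited TPM.

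Libraries of the same group were more alike than libraries of different groups, with Spearman correlations across genes of 0.9763 to 0.9795 against 0.9567 to 0.9603. Between 18557 and 19068 genes per library reached 1 TPM. In the mock libraries the most abundant transcript was LHCB1.3, which encodes an antenna protein of photosystem II and has near-identical copies, and in the ABA libraries it was a ribosomal RNA. Ribosomal RNA took 2.055% to 2.861% of the mock libraries and 2.867% to 5.103% of the ABA libraries, and plastid-encoded genes took 0.347% to 0.569% and 1.084% to 1.669%. The plastid share includes both entries of the plastid 5S ribosomal RNA, identical in value and uncertain. With ABA they made up most of it. Each was at 3644.01, 5982.29 and 2926.08 TPM with ABA and at 0, 1326.03 and 0 TPM in mock libraries. Of 68 plastid-encoded genes tested 3 were called higher and 1 lower, with a median change of 0.03, or 4 and 0 after scaling. The 3 called higher as deposited were both 5S entries and PSBA, and after scaling the 5S entries were not called. In an alternative chosen after these shares were seen, TPM were rescaled after leaving out ribosomal RNA and organelle-encoded genes. It gave 3208 genes called higher and 7332 lower, against 3031 and 7823 as deposited. TPM keeps no read depth, so the depth of the libraries is unknown and no counting interval can be given.

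The receptor genes mostly fell. Of 14 PYR/PYL genes 9 passed the filter on low values, and 7 of these fell, 1 rose and 1 was not called, under both scalings. PYL4 (AT2G38310, chromosome 2, 16049918 to 16051356 in the TAIR10.1 annotation) stood at 181.2, 196.56 and 192.3 TPM in the mock libraries and at 2.92, 2.18 and 3.15 TPM with ABA. Of the 9 receptor transcripts tested it was the most abundant in the mock seedlings and stood below 6 of the other 8 with ABA, with no overlap between the groups. Its change of -5.68 ± 0.13 was the lowest among the genes named here (adjusted p = 7.28e-11). PYL6 (AT2G40330, chromosome 2, 16844588 to 16846194) stood at 16.58, 17.83 and 22.22 TPM in mock libraries and at 0.04 TPM in ABA replicates 1 and 2, and was listed at 0 in ABA replicate 3. Its transcript was close to absent from the treated seedlings (-4.26 ± 0.15, adjusted p = 8.69e-10). PYL5 (AT5G05440, chromosome 5, 1608988 to 1610527) went from 56.53, 62.77 and 71.24 TPM to 2.43, 4.27 and 3.08 TPM, a change of -3.94 ± 0.18 (adjusted p = 4.94e-09).

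The other receptor transcripts that fell lost less. PYR1, the receptor through which the family was found, stood at 78.28, 79.07 and 96.3 TPM in mock libraries and at 13.61, 13.73 and 12.09 TPM with ABA (-2.59 ± 0.13, adjusted p = 1.22e-08). PYL8 fell from a mean of 76.31 ± 1.46 TPM (SD, n = 3 here and below) to 29.97 ± 3.19 TPM, and PYL1 from 41.56 ± 3.45 to 16.6 ± 2.11 TPM. PYL2, scarce in these seedlings, fell from 2.07 ± 0.73 to 0.57 ± 0.1 TPM. PYL7 was the receptor gene that rose, from 18.55, 17.27 and 19.98 TPM to 33.72, 29.78 and 31.33 TPM (0.73 ± 0.1, adjusted p = 5.9e-05). Its exons share up to 571 bp with a gene on the opposite strand, and the sources used here do not say whether the counting used strand. PYL9 was at 5.67 ± 1.11 and 6.56 ± 1.63 TPM, with overlapping groups (adjusted p = 0.413). PYL3, PYL10, PYL11, PYL12 and PYL13 did not pass the filter, and their values lay between 0 and 1.45 TPM in the 6 libraries. Over the 14 genes the summed level went from 478.92 to 532.72 TPM in the mock libraries down to 104.2 to 106.51 TPM with ABA, and PYL7 and PYL8 then held the highest levels of the family.

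The clade A PP2C genes, whose products hold the pathway off, moved the other way. Of 9 genes 8 passed the filter and 8 rose, each by at least 1 log2 unit, with a median change of 3.8 beside -0.24 for all genes. HAI1 (AT5G59220, chromosome 5, 23894404 to 23896939), named for its strong induction by ABA, stood at 3.44, 4.02 and 2.29 TPM in mock libraries and at 345.93, 365.6 and 379.28 TPM with ABA. The ABA mean was 112-fold the mock mean, and the change was 6.44 ± 0.2 (adjusted p = 3.14e-10). PP2CA went from 34.78, 30.21 and 29.78 TPM to 530.23, 514.68 and 566.64 TPM (4.05 ± 0.11, adjusted p = 1.64e-10), which made it the most abundant phosphatase transcript of the list after ABA. ABI1, in which a dominant mutation gave ABA-insensitive plants, was the most abundant of them in mock seedlings and went from 62.25, 59.15 and 65.3 TPM to 416.89, 432.63 and 432.05 TPM (2.76 ± 0.07, adjusted p = 1.64e-10).

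The remaining phosphatases differed in size of change rather than in direction. HAI2 rose from 2.37 ± 1.03 to 137.82 ± 22.14 TPM, ABI2 from 7.77 ± 0.83 to 146.27 ± 12.18 TPM and HAB1 from 14.33 ± 2.18 to 178.78 ± 26.14 TPM. HAB2 had the smallest change of the 8, from 18.78 ± 0.79 to 52.82 ± 9.42 TPM (1.43 ± 0.12). HAI3 stayed low, with 0.05, 0.17 and 0 TPM in mock libraries and 3.68, 3.53 and 4.15 TPM with ABA. AHG1, a phosphatase gene known from seeds, did not pass the filter, being listed at 0 in the mock libraries and at 0.42, 0.4 and 1.38 TPM with ABA. The summed level of the list went from 138.93 to 142.03 TPM up to 1755.72 to 1954.72 TPM. In mock seedlings the summed receptors exceeded the summed phosphatases, and with ABA the order was the reverse in each library.

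The kinases had the smallest median change of the core lists, 0.13 for the genes tested. Of 10 SnRK2 genes 8 were tested, of which 3 rose and 1 fell, or 5 rose and 1 fell after TMM-style scaling. SNRK2.7 rose from 0.4, 0.93 and 0.62 TPM to 12.45, 8.33 and 13.07 TPM (2.89 ± 0.22, adjusted p = 4.86e-07). OST1 (SnRK2.6), the kinase known for stomatal closure, rose from 9.62, 10.63 and 11.56 TPM to 24.58, 21.67 and 30.59 TPM (1.19 ± 0.12, adjusted p = 6.79e-06). Its partners in the response, SNRK2.2 and SNRK2.3, were at 123.03 ± 3.13 and 117.08 ± 2.57 TPM and at 18.41 ± 1.4 and 16.12 ± 1.37 TPM, and neither was called (adjusted p = 0.362 and 0.136). SNRK2.10 rose by 0.41 ± 0.08 and SNRK2.5, which shares exon sequence with an antisense gene, fell by 0.81 on the log2 scale. SNRK2.1 and SNRK2.4 gained a call after scaling, at 0.46 and 0.29. SNRK2.8 and SNRK2.9 did not pass the filter.

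In the list of ABF-ABI5 bZIP factors, which also holds GBF3 from another bZIP group, 6 of 8 tested rose and 0 fell under both scalings. ABF3 stood at 16.79, 17.52 and 18.38 TPM in mock libraries and at 266.93, 210.01 and 256.49 TPM with ABA, and its change of 3.72 ± 0.14 was the highest of the list (adjusted p = 1.4e-09). GBF3, a G-box-binding bZIP factor, rose from 13.31 ± 0.88 to 115.8 ± 11.3 TPM. ABF2 rose from 21.9 ± 1.08 to 86.74 ± 10.47 TPM. ABI5, known for arresting seedlings soon after germination, rose from 6.08 ± 0.35 to 29.2 ± 4.48 TPM, and ABF4 and ABF1 rose by 1.06 ± 0.13 and 0.75 ± 0.14. AREB3 and EEL were not called (-0.04 and 0.19), and DPBF2 did not pass the filter. ABF4, GBF3, ABF1 and AREB3 share up to 754, 246, 123 and 113 bp of exon sequence with an antisense gene, so their values are uncertain to that extent.

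**Figure D1:**
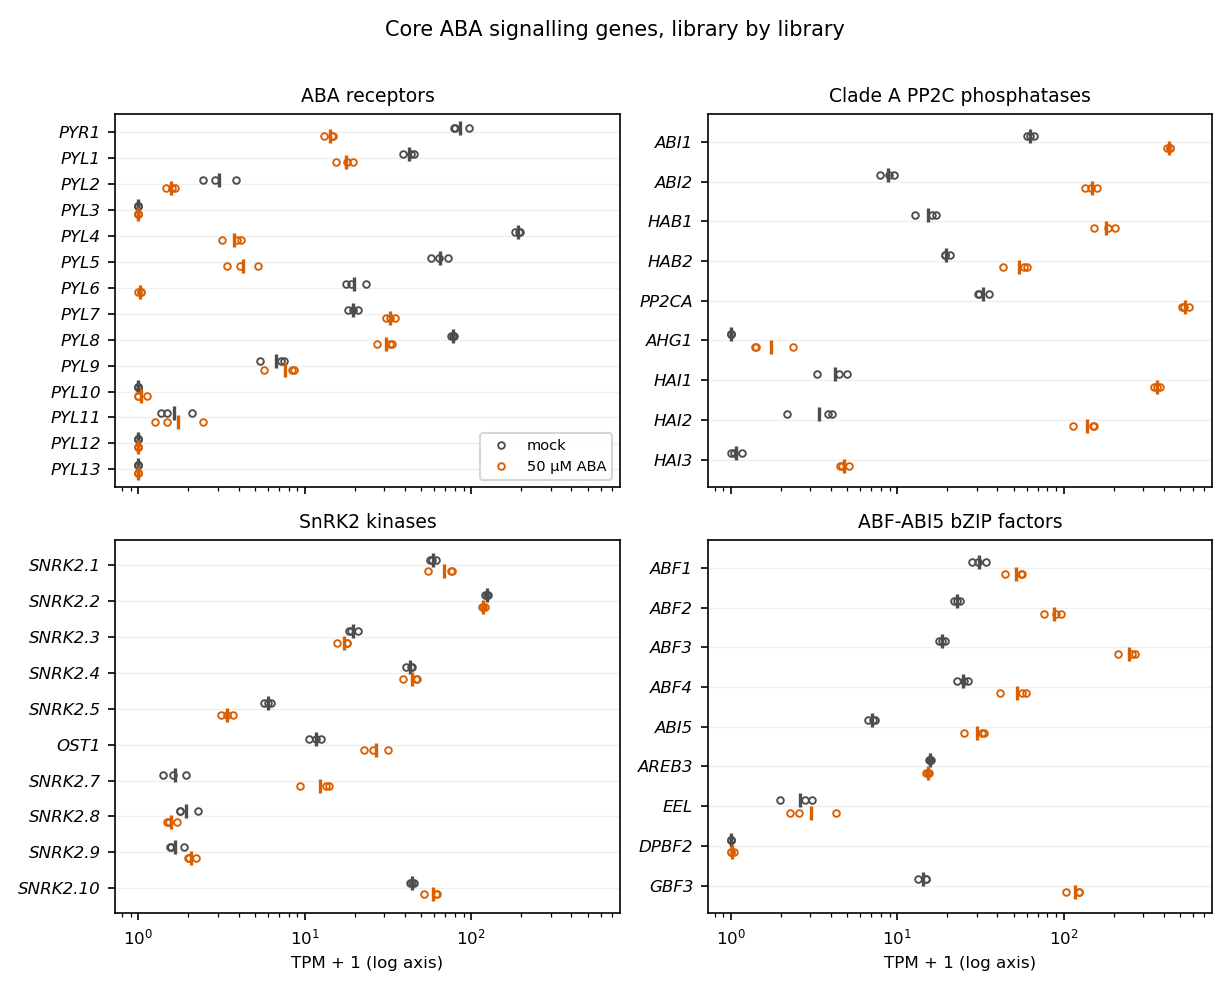
TPM + 1 on a log axis for every member of the 4 core lists, with open circles for the 3 mock (grey) and 3 ABA (orange) libraries and a bar for each group's mean. The circles of PYL4, PYL5 and PYL6 lie to the left of their mock circles after ABA, those of HAI1, HAI2 and PP2CA lie to the right, and those of SNRK2.2, SNRK2.3, SNRK2.4 and AREB3 nearly coincide.

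Modulators of the pathway also changed, mostly upward. Of 21 genes tested 12 rose and 4 fell, and after scaling 15 rose and 2 fell. Without mock replicate 3, 2 fell. The U-box ubiquitin ligase gene PUB19 went from 0.93, 1.6 and 1.39 TPM to 116.09, 95.82 and 110.86 TPM (5.56 ± 0.21, adjusted p = 1.14e-09). MAPKKK18, the entry kinase of an ABA-activated MAP kinase cascade, went from 2.28, 2.62 and 2.38 TPM to 97.66, 108.03 and 134.64 TPM (5.05 ± 0.18, adjusted p = 8.69e-10). The cascade's other members differed. MPK7 rose from 24.59 ± 0.71 to 103.51 ± 7.41 TPM, MAPKKK17 from 1.38 ± 0.13 to 6.89 ± 0.59 TPM, MPK1 fell from 5.64 ± 0.78 to 3.28 ± 0.01 TPM, and the middle kinase MKK3 was at 6.27 ± 0.83 and 7.73 ± 1.52 TPM (adjusted p = 0.143). The repressors that bind ABI5 rose as well, AFP1 from 8.66, 7.57 and 8.02 TPM to 237.44, 178.72 and 251.44 TPM, AFP3 to a mean of 238.99 ± 4.31 TPM and AFP2 to 43.34 ± 4.76 TPM. RHA2B, a RING ubiquitin ligase that promotes ABA responses, fell from 20.91 ± 2.42 to 10.44 ± 1.17 TPM.

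Transcripts for making and for destroying ABA rose side by side. All 4 genes for the CYP707A hydroxylases, which inactivate the hormone, rose. CYP707A1 went from 12, 13.31 and 11.07 TPM to 135.74, 149.43 and 165.96 TPM (3.53 ± 0.11, adjusted p = 5.5e-10), and CYP707A4 from 1.97 ± 0.41 to 33.41 ± 5.33 TPM. CYP707A3 and CYP707A2 reached 65.73 ± 11.04 and 21.41 ± 1.22 TPM. UGT71C5, which stores ABA as a glucose ester, fell from 26.89, 30.58 and 32.55 TPM to 14.37, 17.14 and 16.23 TPM, while BGLU18, which releases it again, rose from 495.6 ± 84.76 to 763.81 ± 170.56 TPM. The exporter gene ABCG25 rose from 7.11 ± 0.4 to 23.91 ± 0.56 TPM. In the whole list of inactivation and transport 8 of 12 rose and 2 fell, and 8 and 1 after scaling, under which the fall of the importer gene NPF4.6 was no longer called.

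Of 10 synthesis genes 6 passed the filter, of which 3 rose and 1 fell, or 5 and 0 after scaling. NCED3, the carotenoid-cleaving enzyme that limits synthesis in drought, went from 7.07, 8.34 and 6.37 TPM to 27.43, 19.69 and 35.26 TPM (1.75 ± 0.19, adjusted p = 1.14e-05). The zeaxanthin epoxidase gene ABA1 rose from 32.28 ± 2.6 to 115.86 ± 19.17 TPM. AAO3, for the last enzyme of the path, rose from 9.65 ± 0.92 to 21.36 ± 3.68 TPM and shares up to 749 bp of exon sequence with an antisense gene. The gene that fell was ABA2, for xanthoxin dehydrogenase, from 12.96 ± 1.54 to 9.58 ± 0.89 TPM (-0.4 ± 0.13, adjusted p = 0.0194), with 349 bp of its exons shared with an antisense gene. That call was lost without mock replicate 1 (-0.38, adjusted p = 0.0535), mock replicate 3 (-0.33, adjusted p = 0.0814) or ABA replicate 2 (-0.34, adjusted p = 0.064). The other NCED genes did not pass the filter.

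Genes for late embryogenesis abundant (LEA) proteins, dehydrins and cold-regulated proteins, which protect membranes and enzymes in drying cells, rose almost without exception. Of 21 genes 19 were tested, 18 rose, each by at least 1 log2 unit, and 0 fell, under both scalings. Together the 21 genes took 0.918% to 1% of the TPM of the mock libraries and 4.15% to 4.21% of the ABA libraries. LEA7 (AT1G52690, chromosome 1, 19619724 to 19621534) stood at 1.54, 8.41 and 1.75 TPM in mock libraries and at 544.63, 399.92 and 585.35 TPM with ABA. The groups were far apart, although mock replicate 2 was well above the other mock libraries (6.97 ± 0.58, adjusted p = 9.49e-07). Without mock replicate 2 the change of LEA7 was 7.58. The dehydrin gene RAB18 (AT5G66400, chromosome 5, 26518277 to 26519447), a common marker of ABA response, went from 15.11, 13.57 and 11.96 TPM to 624.14, 466.4 and 689.04 TPM (5.34 ± 0.18, adjusted p = 5.51e-10).

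The list spanned a wide range of levels. LEA4-5 rose from 5.37 ± 2.63 to 491.17 ± 27.07 TPM and AT3G02480, an LEA-type gene, from 4.99 ± 3.54 to 520.49 ± 72.51 TPM. RD29B (AT5G52300, chromosome 5, 21237021 to 21239531) went from 2.04, 4.82 and 1.4 TPM to 151.94, 68.16 and 139.61 TPM (5.03 ± 0.35, adjusted p = 2.24e-07), while its neighbour RD29A started high and rose from 876.17 ± 7.93 to 4568.84 ± 739.13 TPM. Of the cold-regulated genes, KIN2 and COR15A had higher means than RD29A in both groups, and KIN1 had lower ones. KIN2 rose from 3445.43 ± 343.71 to 11562.56 ± 1519.55 TPM, COR15A from 1358 ± 153.31 to 7905.39 ± 451.72 TPM and KIN1 from 155.6 ± 22.71 to 3047.68 ± 101.67 TPM. EM6, a gene known from maturing seeds, rose from 1.56 ± 0.22 to 42.9 ± 13.48 TPM. The dehydrin gene HIRD11 was the member not called, at 1261.39 ± 153.21 and 1139.28 ± 172.64 TPM (adjusted p = 0.328), and XERO1 and EM1 did not pass the filter.

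**Figure D2:**
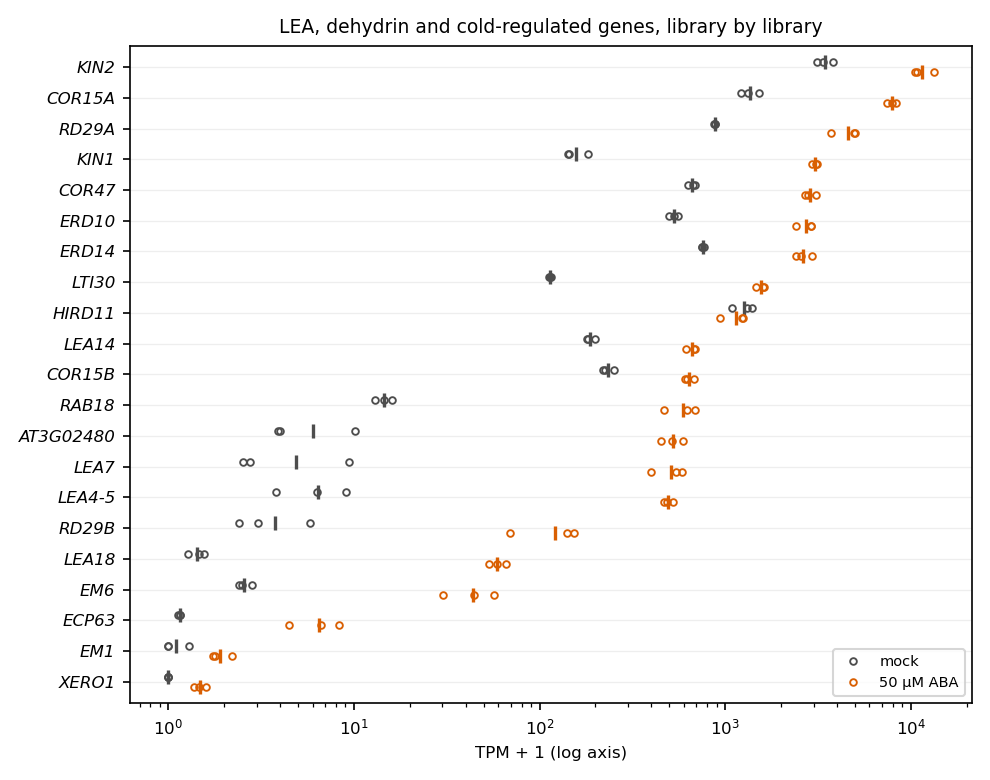
TPM + 1 on a log axis for the 21 LEA, dehydrin and cold-regulated genes, ordered by mean level with ABA, with open circles for the 3 mock (grey) and 3 ABA (orange) libraries and a bar for each mean. The groups are apart for every gene but HIRD11, and for LEA7, AT3G02480 and RD29B 1 mock circle, that of replicate 2, lies to the right of the others.

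Mock replicate 2 also had the highest mock level for many other strongly raised genes. Of the 58 genes called higher by at least 4 log2 units it was the highest mock library for 36, or 62.1%, beside 40.3% over all genes tested and 35.7% over genes higher by 2 to 4 log2 units. The part of that library in the results was not tested beyond leaving it out.

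The ABRE was looked for upstream of genes because the bZIP factors described above are known to bind it. The letters ACGTGNC, where N is any base, were searched on either strand in the 300 bases before each annotated gene start. A match can overlap the G-box CACGTG, which was counted separately. The windows of 5 genes are shown from the RefSeq TAIR10.1 genome, 5′ to 3′ on the gene's strand, with the ABRE core on either strand in capitals. They set strongly changed genes with 1 or more matches beside strongly changed genes with none. The windows are chr1:19619424-19619723 on the plus strand for LEA7, chr5:21236721-21237020 on the plus strand for RD29B, chr5:26519448-26519747 on the minus strand for RAB18, chr5:23896940-23897239 on the minus strand for HAI1 and chr2:16049618-16049917 on the plus strand for PYL4.
LEA7: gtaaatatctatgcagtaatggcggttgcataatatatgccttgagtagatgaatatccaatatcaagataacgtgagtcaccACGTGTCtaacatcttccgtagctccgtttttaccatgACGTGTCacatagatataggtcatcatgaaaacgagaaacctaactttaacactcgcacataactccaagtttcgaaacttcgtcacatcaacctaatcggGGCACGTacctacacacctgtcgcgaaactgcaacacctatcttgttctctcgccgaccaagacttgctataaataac
RD29B: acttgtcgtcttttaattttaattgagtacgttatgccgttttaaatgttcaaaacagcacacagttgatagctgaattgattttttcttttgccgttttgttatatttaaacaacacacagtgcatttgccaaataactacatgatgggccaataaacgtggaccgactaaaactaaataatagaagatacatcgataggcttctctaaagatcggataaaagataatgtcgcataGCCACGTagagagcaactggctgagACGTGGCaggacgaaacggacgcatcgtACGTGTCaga
RAB18: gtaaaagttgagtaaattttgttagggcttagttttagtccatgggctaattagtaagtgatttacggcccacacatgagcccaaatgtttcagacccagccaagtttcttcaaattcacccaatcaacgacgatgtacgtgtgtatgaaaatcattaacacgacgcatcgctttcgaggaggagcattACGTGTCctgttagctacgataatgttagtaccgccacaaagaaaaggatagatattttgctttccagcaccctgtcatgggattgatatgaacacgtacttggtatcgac
HAI1: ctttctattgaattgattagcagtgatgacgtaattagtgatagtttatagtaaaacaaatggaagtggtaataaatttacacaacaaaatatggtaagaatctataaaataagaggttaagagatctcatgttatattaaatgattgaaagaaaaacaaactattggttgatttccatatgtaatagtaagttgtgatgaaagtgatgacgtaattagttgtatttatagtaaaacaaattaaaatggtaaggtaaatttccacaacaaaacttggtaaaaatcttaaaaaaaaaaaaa
PYL4: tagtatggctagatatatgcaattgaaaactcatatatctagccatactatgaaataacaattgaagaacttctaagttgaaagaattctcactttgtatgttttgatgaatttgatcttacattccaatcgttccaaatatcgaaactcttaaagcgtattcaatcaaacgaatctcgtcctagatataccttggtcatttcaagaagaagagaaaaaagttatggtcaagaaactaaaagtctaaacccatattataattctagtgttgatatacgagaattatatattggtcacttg

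LEA7 held 3 ABRE cores, whose leftmost bases lay 217, 179 and 78 bases before the gene start, and RD29B held 3, at 63, 38 and 10 bases. RAB18 held 1, at 111 bases. HAI1, whose change was higher than that of RAB18, and PYL4 held 0 in the window. Among the core lists 4 of 9 PP2C genes and 3 of 9 bZIP genes had an ABRE core, and 2 of 14 receptor genes, PYL3 and PYL7. The LEA list had 10 of 21 and the stress factors 14 of 31. Lists that did not rise as a body had it too, 8 of 22 antenna and Rubisco genes and 4 of 10 cell cycle genes, as did 7 of 12 clock genes, while 0 of 15 salicylate and defence genes and 1 of 18 aquaporin genes did.

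Across all genes the share with an ABRE core followed the size and direction of change. It was 44.6% of 56 nuclear genes called higher by at least 4 log2 units, 27.9% of 308 higher by 2 to 4, 20.8% of 807 higher by 1 to 2 and 16.4% of 1855 higher by less. It was 10.2% of 8185 genes not called, 7.71% of 6743 lower by under 1 log2 unit, 4.9% of 939 lower by 1 to 2 and 4.29% of 140 lower by at least 2. The share was 10.5% over the 19033 nuclear genes tested and 8.16% over 37897 annotated nuclear genes. Read the other way, 5.23% of the genes without an ABRE core were called higher by at least 1 log2 unit, 11.2% of those with 1, 18.7% of those with 2 and 37.5% of the 96 with 3 or more. The G-box gave a like series, from 44.6% to 4.29%. The cold- and drought-related DRE core CCGAC was found in 33.9% of the genes higher by at least 4 log2 units, 15.3% of all tested and 13.6% of those lower by at least 2. These shares describe letters in a fixed window, and a match is not a bound site.

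**Figure D3:**
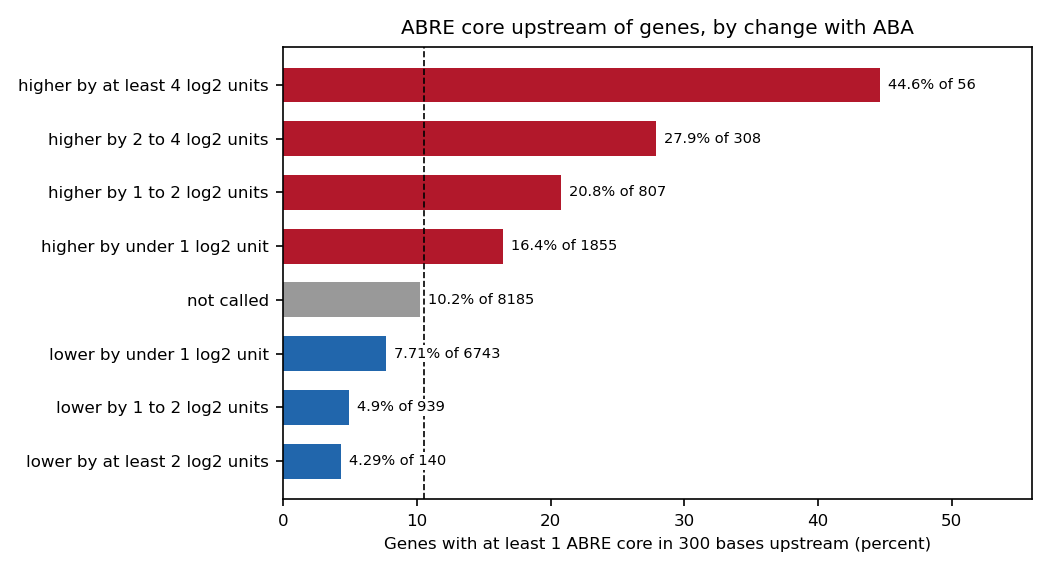
Percent of nuclear genes with at least 1 ABRE core in the 300 bases upstream, in classes of called change with ABA from highest (top) to lowest (bottom), with the number of genes beside each bar and the 10.5% of all genes tested as a dashed line. The bars fall from 44.6% to 4.29% down the classes.

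Genes for compatible solutes and sugars followed in part. Of 15 genes tested 9 rose and 3 fell, and 9 and 1 after scaling. P5CS1, the limiting enzyme of proline synthesis, went from 21.45, 19.52 and 15.73 TPM to 418.72, 308.02 and 417.63 TPM (4.26 ± 0.14, adjusted p = 6.55e-10). The next enzyme gene, P5CR, fell from 161.75 ± 4.59 to 108.64 ± 4.6 TPM and is uncertain, because it has near-identical copies elsewhere in the genome. Galactinol synthase GOLS2 rose from 1.06 ± 0.56 to 20.99 ± 5.67 TPM, sucrose synthase SUS1 from 25.58 ± 1.01 to 172.53 ± 27.21 TPM and the starch-degrading amylase gene BAM1 from 16.77 ± 1.52 to 114.48 ± 19.53 TPM.

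Stress transcription factors rose in 28 of 30 genes tested, and 1 fell. After scaling 29 rose. NAC019 stood at 15.1, 18.36 and 16.71 TPM in mock libraries and at 520.2, 722.2 and 650.32 TPM with ABA (5.15 ± 0.18, adjusted p = 8.69e-10). Its relative RD26 went from 8.9, 8.88 and 9.42 TPM to 215.76, 264.95 and 252.07 TPM (4.6 ± 0.11, adjusted p = 7.57e-11). The heat shock factor gene HSFA6B went from 0.71, 1.11 and 0.68 TPM to 54.52, 37.81 and 56.43 TPM (4.77 ± 0.21, adjusted p = 4.07e-09). The homeodomain genes HB-7 and HB-12 rose by 4.3 ± 0.14 and 4.23 ± 0.15, and MYB102 and MYB74 by 4.59 ± 0.16 and 4.43 ± 0.18. The CBF factors, better known from cold, rose too. CBF3 went from 2.08 ± 0.39 to 25.14 ± 1.8 TPM, and CBF4 was listed at 0 in the mock libraries and at 3.81, 4.7 and 4.82 TPM with ABA. HB5 fell from 103.19 ± 3.37 to 44.59 ± 1.52 TPM.

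Wax synthesis and lipid transfer genes, whose products build the cuticle, rose in 12 of 13 genes tested, and 1 fell. LTP4 went from 3.6, 4.3 and 2.95 TPM to 327.62, 384.85 and 411.03 TPM (6.35 ± 0.21, adjusted p = 5.51e-10). The neighbouring LTP3 rose from 27.64 ± 6.58 to 927.42 ± 119.53 TPM. CER1 and CER3, which make wax alkanes, rose from 33.61 ± 1.62 to 335.09 ± 69.35 TPM and from 141.52 ± 9.5 to 325.12 ± 24.42 TPM. The elongase gene KCS2 rose by 3.9 ± 0.26, with up to 1258 bp of its exons shared with an antisense gene. MYB30, a factor of wax synthesis and defence, fell from 32.17 ± 1.42 to 13.77 ± 2.05 TPM, while MYB96, counted among the stress factors, rose to 204.65 ± 28.2 TPM.

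Aquaporins, which let water cross membranes, mostly rose. Of 17 tested 11 rose and 4 fell, and after scaling 12 rose and 0 fell. The plasma membrane gene PIP1;1 went from 164.16, 151.76 and 163.16 TPM to 628.98, 660.14 and 664.08 TPM (2.02 ± 0.08, adjusted p = 1.2e-09). PIP1;4 and PIP2;1 reached 645.43 ± 74.2 and 1082.14 ± 60.95 TPM from 185.01 ± 9.93 and 390.8 ± 46.35 TPM. Those that fell on the deposited scale were PIP1;5, PIP2;8 and the vacuolar genes TIP1;2 and TIP2;1, by 0.3, 0.55, 0.39 and 0.52 on the log2 scale.

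Genes for channels, pumps and oxidases of guard cells went both ways. Of 14 tested 5 rose and 5 fell, beside 15.8% and 40.9% of all genes. The share that fell was thus not above that of all genes as deposited. After scaling 7 rose and 4 fell, beside 24.7% and 22.5%. ALMT12, an anion channel for stomatal closure, rose from 2.45, 2.59 and 1.94 TPM to 13.4, 11.41 and 14.14 TPM (2.07 ± 0.15, adjusted p = 2.43e-07). The anion channel gene SLAC1, which overlaps the exons of an antisense gene by up to 683 bp, rose from 3.32 ± 0.1 to 4.58 ± 0.19 TPM. Of the NADPH oxidase genes RBOHF rose from 6.45 ± 0.92 to 13.62 ± 1.64 TPM and RBOHD fell from 18.04 ± 0.95 to 8.76 ± 1.01 TPM. The receptor kinase gene GHR1 and the potassium channel gene AKT1 fell by 1.16 and 1.12 on the log2 scale.

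Growth-related genes of auxin and of wall loosening mostly fell. In auxin signalling and transport 12 of 18 fell and 1 rose, and 11 and 4 after scaling. Without ABA replicate 2, 2 rose. The influx carrier gene AUX1 went from 90.02, 84.29 and 79.01 TPM to 34.3, 27.61 and 28.19 TPM (-1.47 ± 0.12, adjusted p = 7.06e-07). The efflux carrier genes PIN3, PIN4 and PIN7 fell by 1.02, 1.1 and 0.82 on the log2 scale, and the repressor gene IAA29 from 17.88 ± 0.66 to 5.52 ± 1.05 TPM. GH3.5, which conjugates auxin to amino acids, rose from 37.91 ± 1.18 to 92.37 ± 15.12 TPM. Wall-loosening genes fell in 10 of 16 and rose in 4, or 9 and 4 after scaling. The expansin gene EXPA8 went from 17.1, 17.41 and 15.6 TPM to 0.88, 0.54 and 1.22 TPM (-3.25 ± 0.18, adjusted p = 3.26e-08), and EXPA1 from 156.81 ± 9.9 to 37.52 ± 4.24 TPM. XTH24, of the xyloglucan endotransglucosylases, rose from 193.38 ± 23.77 to 576.55 ± 54.46 TPM.

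Gibberellin genes fell in 5 of 14 and rose in 3, and after scaling 3 fell and 5 rose, so the balance of this list depended on the scaling. GA3OX1, for the last step to active gibberellin, fell from 10.85, 11.92 and 8.42 TPM to 3.25, 2 and 3.03 TPM under both (-1.6 ± 0.17, adjusted p = 9.42e-06). GA20OX1 fell from 3.45 ± 0.59 to 0.81 ± 0.06 TPM. Of the DELLA repressor genes GAI fell from 50.62 ± 0.64 to 23.94 ± 3.1 TPM, RGL3 rose from 4.81 ± 0.39 to 10.61 ± 0.71 TPM, and RGA was at 56.98 ± 3.12 and 52.26 ± 2.89 TPM (adjusted p = 0.305). Type A response regulators of cytokinin gave 2 higher and 3 lower of 8, or 3 and 2 after scaling, and 1 higher without mock replicate 2. ARR7 fell from 25.01 ± 1.79 to 11.24 ± 1.87 TPM. Cell cycle genes gave 1 higher and 4 lower of 10, or 1 and 3 after scaling, with the inhibitor gene KRP1 higher by 0.55 ± 0.13 and the cyclin gene CYCD3;1 lower, from 19.82 ± 1.22 to 11.72 ± 2.96 TPM. As deposited, none of the gibberellin, cytokinin and cell cycle lists had a larger share lower than the 40.9% of all genes. After scaling the share of all genes called lower was 22.5%. The cytokinin and cell cycle lists then had a larger share lower, with 2 of 8 and 3 of 10, and the gibberellin list did not.

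Photosynthetic genes fell by little, and most of their calls depended on the scaling. Of 22 antenna and Rubisco genes, 3 of which also serve as mesophyll markers below, 16 fell and 0 rose on the deposited scale, with a median of -0.42, while after scaling 3 fell and 0 rose, with a median of -0.17. The 3 that fell under both were RBCS1B, RBCS2B and LHCB6. RBCS1B, for a small subunit of Rubisco, went from 872.89, 819.32 and 726.12 TPM to 171.68, 166.41 and 149.01 TPM (-2.3 ± 0.11, adjusted p = 8.21e-09). Its neighbour RBCS2B fell from 935.27 ± 77.54 to 415.47 ± 42.45 TPM. RBCS3B, from the same cluster, was called lower at -0.42 ± 0.09 as deposited and was not called after scaling.

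Among genes of other hormones and of defence, jasmonate genes rose in 12 of 22 and fell in 2, or 16 and 1 after scaling. VSP2, a storage protein gene used as a jasmonate marker, went from 36.23, 22.12 and 17 TPM to 629.83, 348.71 and 378.06 TPM (4.13 ± 0.3, adjusted p = 3.15e-07). Replicate 1 was the highest library in each group. JAZ1, JAZ10 and JAZ12, repressors of the jasmonate response, rose by 1.11 ± 0.18, 1.01 ± 0.14 and 1.08 ± 0.07. MYC2, the factor they repress, rose from 14.35 ± 1.89 to 48.36 ± 2.14 TPM, but 3241 bp of its exons overlap an antisense gene. Salicylate and defence genes fell in 9 of 15 and rose in 2, or 6 and 2 after scaling, with PAD4 from 15.31 ± 1.66 to 5.77 ± 0.96 TPM, EDS1 from 22.3 ± 1.19 to 12.6 ± 0.8 TPM and the synthesis gene ICS1 from 25.21 ± 2.64 to 17.42 ± 2.22 TPM. PBS3, which acts after ICS1 in salicylate synthesis, rose from 13.32 ± 1.56 to 21.62 ± 2.65 TPM (0.66 ± 0.18, adjusted p = 0.00875, and 0.9 after scaling). The defence marker PR1 was at 14 ± 4.97 and 21.3 ± 4.48 TPM and was not called (adjusted p = 0.136).

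Flavonoid genes rose in 9 of 12 and fell in 1, or 10 and 1 after scaling. Of the anthocyanin genes, DFR and LDOX rose by 1.72 ± 0.21 and 2.11 ± 0.23, and the regulators PAP1 and TT8 by 2 ± 0.19 and 2.08 ± 0.16, with LDOX uncertain because it has a near-identical copy. CHS, the entry enzyme, was at 31.25 ± 2.96 and 45.43 ± 11.15 TPM (0.5 ± 0.2, adjusted p = 0.0511) and was called higher after scaling (0.75, adjusted p = 0.00424), and MYB111, which drives flavonol synthesis, fell from 4.93 ± 0.71 to 1.69 ± 0.27 TPM. Clock genes rose in 5 of 10 and fell in 0, or 6 and 0 after scaling, but 3 rose without mock replicate 1 or 2, 2 rose without ABA replicate 1 or 3, and 1 fell without ABA replicate 3. The evening gene ELF4 led them, from 102.7, 90.59 and 99.43 TPM to 267.34, 327.14 and 284.62 TPM (1.57 ± 0.09, adjusted p = 4.68e-08).

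**Figure D4:**
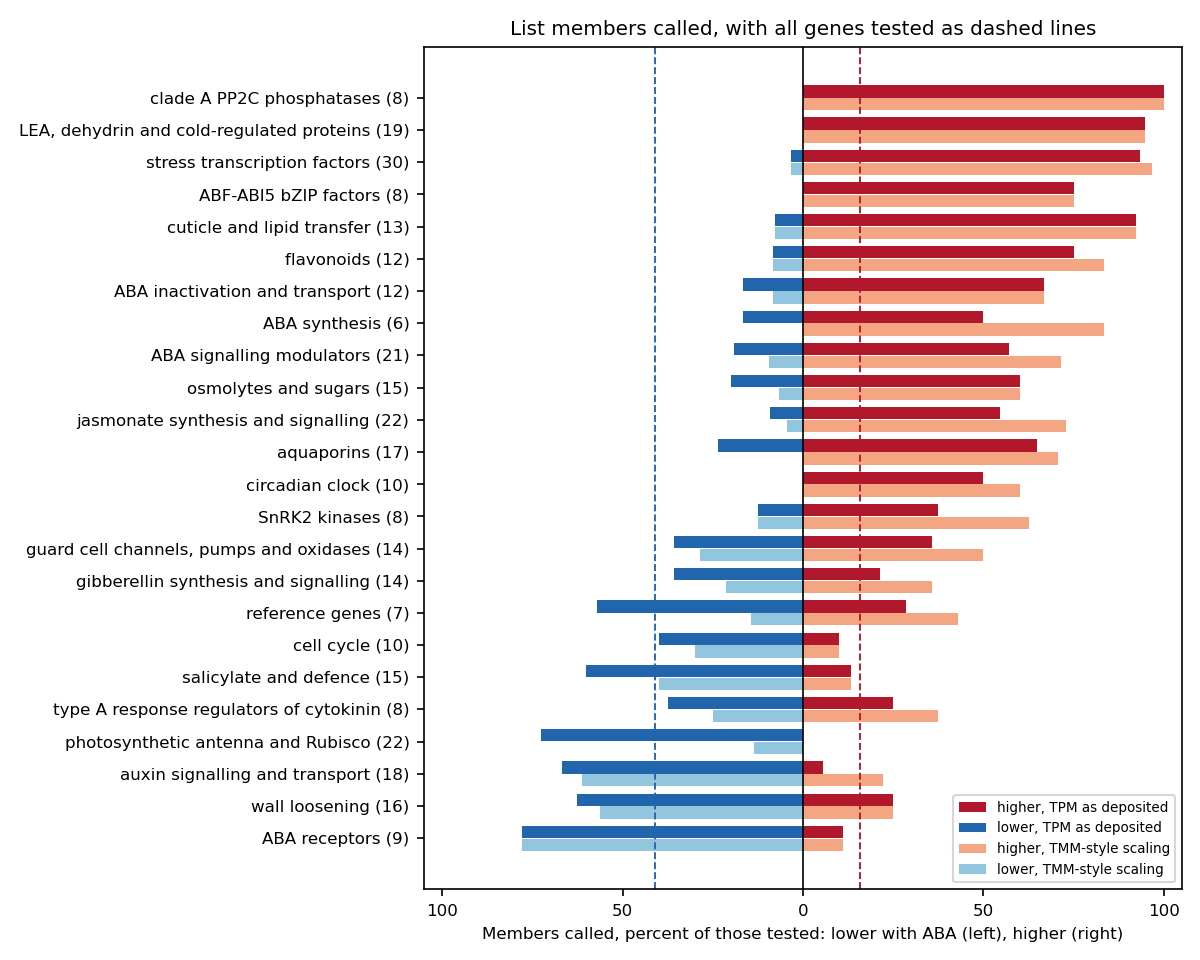
Percent of tested members called higher (red, right) or lower (blue, left) with ABA in each of the 24 lists with members tested, ordered by median change, with the number tested in brackets, dark bars for deposited TPM and pale bars after TMM-style scaling. Dashed lines mark the 15.8% called higher and 40.9% called lower among all genes tested on deposited TPM. The shares after scaling, 24.7% and 22.5%, are not drawn. The antenna and reference gene lists show the largest difference between dark and pale blue bars.

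Markers of cell types were read in the same libraries, because fewer cells of a type and less RNA per cell cannot be told apart in whole seedlings. Of 5 guard cell markers 3 fell and 1 rose, and 3 and 2 after scaling or without ABA replicate 2. The guard cell factor MYB60 fell from 13.59, 15.52 and 14.76 TPM to 2.07, 2.65 and 3.46 TPM (-2.08 ± 0.14, adjusted p = 1.35e-07), the lineage factor FAMA from 17.59 ± 0.18 to 8.81 ± 1.09 TPM, and the summed level of the 5 went from 55.51 to 60.31 TPM down to 35.88 to 53.57 TPM. The markers HT1, KAT1 and SLAC1 are also members of the guard cell channel list, so 3 genes count in both, and the part of the cell type in the result for the channel genes was not tested. Of 6 root markers 4 were tested and 4 fell, or 3 after scaling. The root genes SCR and WER fell from 16.26 ± 0.93 to 8.49 ± 1.71 TPM and from 2.05 ± 0.32 to 0.78 ± 0.27 TPM, and the summed root markers went from 30.44 to 33.61 TPM down to 14.09 to 19.87 TPM. The endodermal gene CASP1 and the root hair gene COBL9 lay below 1 TPM in the 6 libraries.

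Of 4 epidermal markers 2 rose and 0 fell, KCS6 from 316.79 ± 9.43 to 787.06 ± 89.02 TPM and FDH from 297.56 ± 1.6 to 414.24 ± 50.22 TPM, both elongases of the wax path themselves, while the epidermal factor ATML1 was at 60.66 ± 0.49 and 56.65 ± 6.98 TPM (adjusted p = 0.376). Their summed level was 884.56 to 915.93 TPM in mock libraries and 1249.1 to 1653.68 TPM with ABA. Vascular markers gave 0 higher and 0 lower of 4, and 1 higher after scaling or without ABA replicate 3, with sums of 102.7 to 115.63 and 111.55 to 136.3 TPM. Of 4 mesophyll markers 3 fell as deposited, 1 fell without mock replicate 2, and 0 fell after scaling, with sums of 6378.55 to 7733.49 and 5256.94 to 6225.69 TPM. Seed maturation genes did not pass the filter in any of 10 cases. The seed storage genes CRA1 and CRU3 were at 2.86 and 2.57 TPM in ABA replicate 2 and at 0 to 0.04 TPM in the other 5 libraries.

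Some genes often used as internal references were not flat. Of 7 genes 2 rose and 4 fell, beside 15.8% and 40.9% of all genes. After scaling 3 rose and 1 fell, beside 24.7% and 22.5%. As a list they were close to the typical gene, with a median of -0.23 beside -0.24 for all genes, and 0.02 beside -0.02 after scaling. UBQ10, a polyubiquitin gene, rose from 938, 965.67 and 896.69 TPM to 1442.59, 1311.86 and 1545.73 TPM (0.62 ± 0.07, adjusted p = 2.28e-05), and 0.87 after scaling. ACT2 fell from 271.15 ± 6.13 to 205.78 ± 11.14 TPM, by 0.4 on the log2 scale and by 0.15 after scaling. UBC21 was at 59.28 ± 2.49 and 71.62 ± 12.23 TPM and PP2AA3 at 53.35 ± 2.35 and 45.48 ± 3.78 TPM.

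Most genes at the extremes of the comparison lay outside these lists, 9 of the 15 highest and 12 of the 15 lowest. The highest change belonged to the plastid 5S ribosomal RNA, whose 2 copies carry identical values, listed at 0 in mock replicates 1 and 3, at 1326.03 TPM in mock replicate 2 and at 3644.01, 5982.29 and 2926.08 TPM with ABA (adjusted p = 0.0455). That call was lost after scaling and when mock replicate 1 or 3 or any ABA library was left out (adjusted p of 0.0804 to 0.152 on leaving a library out), so it is uncertain. Below it came LEA7, AT3G02480, HAI1, LEA4-5 and LTP4. AT3G03341, annotated as a cold-regulated protein, followed, at 1.73, 2.72 and 1.03 TPM in mock libraries and at 196.72, 153.16 and 204.2 TPM with ABA (6.07 ± 0.26, adjusted p = 3.05e-09). Next was LBD1, a LOB-domain gene listed at 0 in mock replicates 1 and 3 and at 0.2 TPM in mock replicate 2, which reached 63.92, 46.99 and 84.24 TPM (5.92 ± 0.33, adjusted p = 3.24e-08). TSPO, for a membrane protein known to be induced by ABA, went from 0.37, 2.73 and 1.94 TPM to 129.85, 102.17 and 142.77 TPM (5.66 ± 0.32, adjusted p = 2.94e-08). AT3G17520, annotated as a further LEA family member, rose from 0.12, 0.62 and 0.1 TPM to 80.08, 54.33 and 81.73 TPM. AT2G37870, of the lipid-transfer superfamily, rose from 1.65 ± 0.4 to 119.71 ± 15.74 TPM, and AT5G50360, with a von Willebrand factor A domain, from 0.94 ± 0.86 to 110.75 ± 20.97 TPM. The remaining locus, AT4G33467, has no described function and shares 253 bp of exon sequence with an antisense gene.

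At the lower end stood PYL4, PYL6 and PYL5 together with HSP15.4, a small heat shock gene that went from 32.01, 40.28 and 37.36 TPM to 1.29, 1.02 and 1.17 TPM (-4.12 ± 0.17, adjusted p = 2.05e-09). CRK30, a receptor-like kinase gene, was at 12.06, 14.24 and 14.69 TPM in mock libraries and at 0.03, 0 and 0.03 TPM with ABA. ACD6, a membrane protein gene of salicylate defence, fell from 80.56, 87.76 and 92.58 TPM to 6.4, 3.06 and 7.75 TPM. AT1G27020, annotated without a function, fell from 68.68 ± 9.43 to 1.8 ± 0.11 TPM (-4.63 ± 0.11, adjusted p = 8.93e-11). AT2G43140, a basic helix-loop-helix factor gene, fell from 18.41, 21.99 and 25.31 TPM to 0.6, 0.57 and 0.71 TPM, and AT1G66940, annotated as related to protein kinases, from 36.52 ± 4.54 to 1.66 ± 0.68 TPM. These last 2 share 271 and 293 bp of exon sequence with an antisense gene. AT2G17740 and AT5G48430, with no name in the files, fell by 3.89 and 3.86 on the log2 scale, and the SAUR-like AT4G34810 and XTH31 by 3.74 each. The photorespiration gene PGLP1A was at 39.43, 38.03 and 40.36 TPM in mock libraries and at 0.18, 6.16 and 2.45 TPM with ABA, and it has a near-identical copy. The values of AT1G09027, a 133 bp locus that lies within an antisense gene, at 102.74, 40.76 and 1.71 TPM in mock libraries and listed at 0 with ABA, are uncertain, and its call was lost when mock replicate 1 (adjusted p = 0.103), mock replicate 2 (adjusted p = 0.0773) or any ABA library (adjusted p of 0.0529 to 0.0548) was left out.

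**Figure D5:**
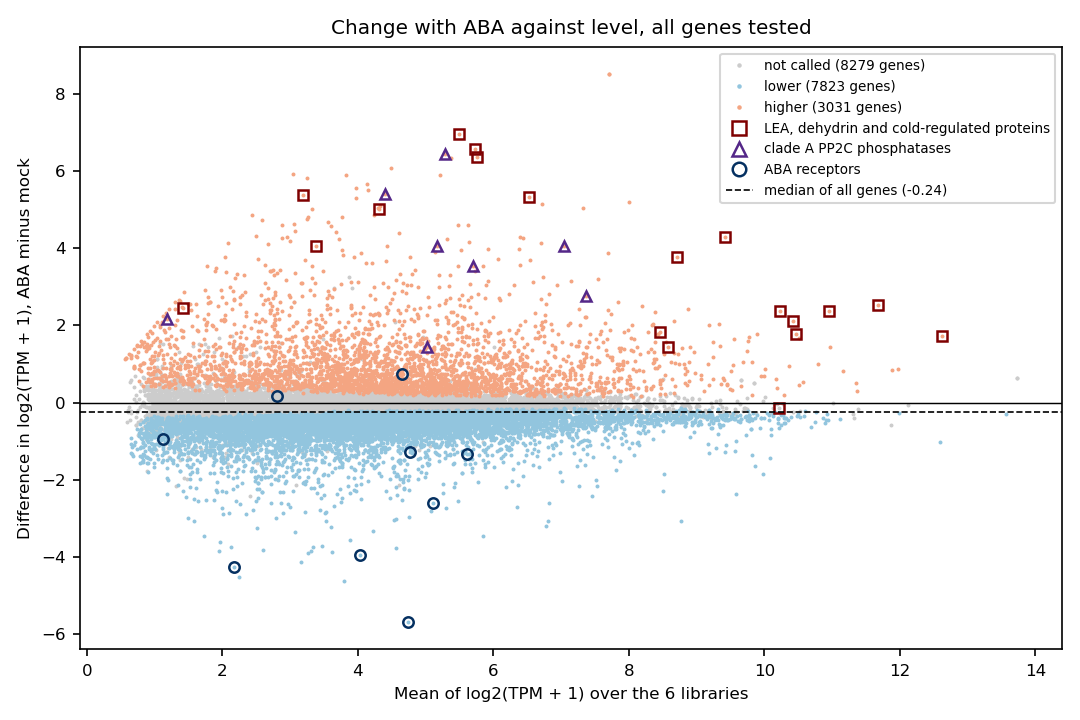
Difference in log2(TPM + 1), ABA minus mock, against the mean of log2(TPM + 1) over the 6 libraries for the 19133 genes tested, coloured by call, with LEA genes as squares, clade A PP2C genes as triangles and receptor genes as circles. The dashed line is the median of all genes at -0.24, and 7 of 9 receptor circles lie below it and 8 of 8 phosphatase triangles above 1.

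A direct comparison of the ABA libraries with those of Col-0 under UV-B, made in the same fit, set these values beside another 3 h treatment. With ABA 24.9% of the genes were called higher than with UV-B and 32.4% lower, which is 4766 and 6204 genes, or 5587 and 5706 after TMM-style scaling. Both comparisons share the 3 ABA libraries. PYL4 was at 201.75 ± 30.66 TPM under UV-B (ABA minus UV-B -5.76 ± 0.13, adjusted p = 1.52e-11), and 7 of the 9 receptors tested were lower with ABA and 1 higher, or 7 and 2 after scaling. The filter used the ABA and mock libraries alone, and so left out PYL11 and PYL12, which were at 24.32, 20.33 and 23.83 TPM and at 3.52, 3.43 and 4.1 TPM under UV-B. With ABA PYL11 was at 0.25, 0.49 and 1.45 TPM and PYL12 was listed at 0, and the difference was not tested for either gene. HAI1 was at 5.5 ± 1.36 TPM under UV-B (5.83 ± 0.2, adjusted p = 1.97e-10), and 8 of 8 phosphatases were higher with ABA. LEA genes were higher with ABA in 17 of 19, with COR15B the called gene of the mock comparison that was not, at 614.28 ± 78.36 TPM under UV-B and 635.79 ± 38.58 TPM with ABA. COR15B shares 468 bp of exon sequence with an antisense gene. Flavonoid genes were lower with ABA than with UV-B in 11 of 12 and higher in 1, TT8, and clock genes lower in 8 of 10. EXPA8 was at 1.43 ± 0.35 TPM under UV-B, and the difference of -0.38 ± 0.18 from ABA was not called (adjusted p = 0.0975). OST1 was at 19.05 ± 1.88 TPM under UV-B (ABA minus UV-B 0.4 ± 0.12, adjusted p = 0.0151).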

How the data were processed

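RNA of whole seedlings was sequenced in 12 libraries, and the groups were taken from the labels. The deposited tables give 1 TPM value per locus and library, read as TPM from the values, which are not whole and sum to between 998197.5 and 998680.8 per library. The authors' build is TAIR10, per the submitters' processing notes, and the sources used here name no aligner, quantifier or strand setting. TPM keeps no read depth, so precision comes from the replicates alone, and a value of 0 can be a failed estimate.

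Log2(TPM + 1) was fitted with limma 3.58.1 (mean-variance trend, R 4.3.3), with 4 group means over all 12 libraries and Benjamini-Hochberg adjustment at 0.05. The fit was tested on simulated data. As an alternative the TPM were rescaled with TMM-style factors (trims of 30% on log ratios and 5% on mean level), and the filter, the pseudocount, the trend, the libraries fitted, the replicate block and each replicate left out were others.

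Positions came from the TAIR10.1 annotation, which held 32548 of the 32833 loci. Near-identical copies were those with 95% identity over 150 bp in BLAST+ 2.17.0, and RNA at antisense loci cannot be told apart without strand. Members and lists were chosen with earlier results of these data known. Named genes were the 4 core lists, the 15 highest and 15 lowest called changes without overlap and with at least 5 TPM, and the 3 largest called changes of each other list with the largest opposite one; genes named beyond these were chosen after their values were seen.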

Additional observations from a re-analysis of the deposited data

How the results depend on the processing

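With ABA against mock, the alternatives moved 3 of the counts over all genes by more than 1.5 times, all under TMM-style scaling: 4724 genes were called higher, 4309 lower and 653 lower by at least 1 log2 unit. The cause was not tested. Leaving out each library of the groups compared in turn gave 2645 to 3077 genes higher, 6521 to 7509 lower, 1115 to 1204 higher by at least 1 log2 unit and 1008 to 1185 lower by as much. The other alternatives gave 2649 to 3208 higher and 6581 to 7813 lower. For changes of at least 1 log2 unit they gave 1008 to 1311 higher and 836 to 1534 lower. The upper values came with a pseudocount of 0.1 and the lower ones with the filter at 5 TPM. With ABA against UV-B, leaving out a library gave 4171 to 4989 higher and 5494 to 6009 lower. Replicates with the same number did not deviate together (Pearson's r of deviations from the group means across genes 0.029, -0.085 and 0.024; genes are not independent replicates), so the number was not taken as a pairing, and with the replicate block 2993 genes were higher and 7610 lower. Of the list counts 858 stayed within 1.5 times and 42 did not, 16 of these under TMM-style scaling. Of the values of named genes 2017 kept their call, 45 lost it, 3 gained it and 0 reversed. A reversal was counted only for a gene called in the main fit or the alternative. Genes called in neither, such as SNRK2.2 and AREB3, could change sign and still count as kept. TPM holds no depth, so small differences among genes of a few TPM cannot be judged against counting error.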

Other observations

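Further gene families were grouped by name or annotated description, a choice made after the values were seen. Each count is a description, to be read beside the 15.8% of all genes called higher and the 40.9% called lower. A count after TMM-style scaling is to be read beside 24.7% and 22.5%. Of 39 SAUR genes tested, early auxin-response genes linked to cell elongation, 32 fell and 4 rose, and 30 and 4 after TMM-style scaling, with a median change of -1.39. SAUR62 went from 19, 18.17 and 18.37 TPM to 2.01, 1.66 and 2.94 TPM, a change of -2.63 ± 0.14. Of 24 xyloglucan endotransglucosylase genes, whose products remodel the cell wall, 13 fell and 8 rose, or 11 and 9 after scaling. XTH31 went from 34.44, 35.23 and 38.66 TPM to 1.47, 2.04 and 1.84 TPM, with groups far apart. Of 29 cysteine-rich receptor-like kinase genes 21 fell and 1 rose, or 17 and 4 after scaling, and 11 fell by at least 1 log2 unit. CRK29 went from 78.4, 100.83 and 95.05 TPM to 16.26, 19.37 and 21.7 TPM. Of 48 WRKY factor genes 22 fell and 13 rose, and the balance turned after scaling to 15 and 19. WRKY29 fell from 49.59 ± 5.52 to 12.75 ± 3.83 TPM.

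Among other families, NAC factors, MYB factors and glutathione transferases rose more often than they fell. Of 59 NAC factor genes 23 rose and 11 fell, or 27 and 10 after scaling. Of 59 MYB factor genes 25 rose and 17 fell, or 28 and 14 after scaling. Of 22 tau glutathione transferase genes, which conjugate glutathione to reactive compounds, 10 rose and 5 fell, or 14 and 2 after scaling. GSTU17 went from 478.86, 476.5 and 492.82 TPM to 1425.26, 1595.59 and 1719.26 TPM (1.7 ± 0.09). The type 2C phosphatases outside clade A went both ways, 13 of 52 higher and 17 lower, or 20 and 6 after scaling. AT3G05640 rose from 16.7 ± 1.31 to 121.92 ± 21.74 TPM, and AT5G02760 fell from 154.9 ± 4.96 to 33 ± 4.35 TPM. Of 196 genes for cytosolic ribosomal proteins 170 fell and 3 rose as deposited, with a median of -0.38, and 36 fell and 4 rose after scaling, with a median of -0.14. Heat shock genes fell in 21 of 38 and rose in 2, or 11 and 4 after scaling. HSP17.8 was among those that rose, from 20.69 ± 1.01 to 70.1 ± 7.99 TPM.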
